A study of Mus musculus with 12 samples.

Results

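The 7 myeloid CC chemokine genes Ccl2, Ccl3, Ccl4, Ccl5, Ccl6, Ccl7 and Ccl9, all on mouse chromosome 11, were examined for binding sites of TET2, among 21883 protein-coding genes. The genes were chosen by name, with earlier results of these data known. A TET2 site was counted for a gene when its midpoint lay inside the gene, or lay within 100 kb with an end of that gene the nearest among the ends of all protein-coding genes. By this rule the 7 genes held 7 of the 6895 sites of the acute myeloid leukemia (AML) list and 19 of the 18822 sites of the myeloid list.

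The sites come from chromatin immunoprecipitation and sequencing (ChIP-seq) with an antibody raised against the N-terminal part of TET2, in cultured mouse cells of 2 types. The myeloid cells were hematopoietic cells immortalized with the transgene MigR1-AML1-ETO, which encodes a leukemia fusion of the transcription factor RUNX1, and had the genotype Tet2fl/fl; AML1-ETO or Tet2-/-; AML1-ETO. The AML culture carried Npm1+/cA; Fl3+/ITD (as the labels spell it) or Npm1+/cA; Fl3+/ITD; Tet2-/-, with no transgene. These alleles encode a mutant nucleophosmin and a receptor with an internal tandem duplication. Each genotype had 2 TET2 libraries, and each cell type had 1 input and 1 IgG library from cells without the Tet2 deletion, 12 libraries in all. Every myeloid library, the knockout included, carries AML1-ETO, and every AML library carries both leukemia alleles. The medium of both contained SCF at 50 ng/ml and IL-3 and IL-6 at 10 ng/ml each. No label states an animal's age or how many clones a culture came from. The authors deposited 1 site list per cell type with positions alone, so no site has a height, a depth, a p-value or a replicate error, and no value separates wild-type from knockout libraries. The lists hold no RNA measurement, so the labelled cell types could not be checked against marker genes.

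CC chemokines are small secreted proteins, named for a pair of adjacent cysteines, that draw leukocytes along a concentration gradient through G protein-coupled receptors. CCL2 and CCL7 attract monocytes through CCR2, and CCL3, CCL5, CCL6 and CCL9 act through CCR1. Monocytes, macrophages and neutrophils make several of them, and most are induced by inflammatory signals acting on enhancers and promoters of their gene clusters. TET2 oxidizes 5-methylcytosine in DNA, an activity found at enhancers of blood cells.

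The promoters of the members are shown first because TET2 sites of both lists covered some and not others. The RefSeq promoter table (GRCm38.p6, which has the chromosome coordinates of mm10) was matched for 3 of the 7 genes, Ccl3, Ccl6 and Ccl9, and not for Ccl2, Ccl4, Ccl5 and Ccl7. All 3 lie on the minus strand. The 250 bases before each start are printed 5′ to 3′ on the gene's strand, in lower case, with matches to the searched strings in capitals. They span chr11:83649379-83649628 for Ccl3, chr11:83593088-83593337 for Ccl6 and chr11:83578637-83578886 for Ccl9.
Ccl3: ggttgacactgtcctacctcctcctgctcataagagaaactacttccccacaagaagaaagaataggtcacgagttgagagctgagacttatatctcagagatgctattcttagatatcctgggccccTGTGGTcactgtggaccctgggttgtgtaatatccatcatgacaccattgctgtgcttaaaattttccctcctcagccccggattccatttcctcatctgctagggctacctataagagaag
Ccl6: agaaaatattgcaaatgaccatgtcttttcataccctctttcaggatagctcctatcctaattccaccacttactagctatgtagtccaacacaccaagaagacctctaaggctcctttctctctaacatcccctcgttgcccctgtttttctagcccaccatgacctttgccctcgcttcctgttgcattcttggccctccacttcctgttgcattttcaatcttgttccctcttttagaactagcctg
Ccl9: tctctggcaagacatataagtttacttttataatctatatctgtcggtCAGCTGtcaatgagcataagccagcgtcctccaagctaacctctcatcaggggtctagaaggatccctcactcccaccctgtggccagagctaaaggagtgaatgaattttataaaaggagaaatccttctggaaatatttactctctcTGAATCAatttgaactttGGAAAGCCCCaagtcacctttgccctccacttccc

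The promoters of Ccl3 and Ccl6 were overlapped by TET2 sites of both cell types, and that of Ccl9 by neither. Each window compared was 300 bases long, from 250 before to 50 after the start. At Ccl3, which encodes the macrophage inflammatory protein MIP-1 alpha, the AML site chr11:83649052-83649912 and the myeloid site chr11:83649164-83649944 both covered all 300 bases. At Ccl6, which encodes a CCR1 ligand of rodents, the AML site chr11:83593195-83594115 covered 142 of the 300 bases and the myeloid site chr11:83592788-83594022 covered all of them. That myeloid site was merged from 2 overlapping deposited sites. Of 21229 promoter windows of protein-coding genes, 1.57% were overlapped by sites of both lists, 1.74% by an AML site and 19.0% by a myeloid site.

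The 3 printed promoters were searched for strings that were each present in 1.61% to 15.6% of protein-coding promoters, so few matches are usual in any promoter. The strings, on both strands, were TGTGGT for RUNX factors, GAGGAAG for ETS factors, TTGCNNAA for C/EBP factors, TGANTCA for AP-1, the NF-kB consensus, AGATAA for GATA factors and CAGCTG for an E-box. In the 300-base windows the Ccl3 promoter held 1 match, TGTGGT, from 122 to 117 bases before the start. That string was present in 15% of protein-coding promoters. The Ccl6 promoter held 0 matches to these strings. Each string is 1 fixed form, and other forms that the same factors may bind were not searched. The Ccl9 promoter, which no site covered, held 3: TGAATCA from 53 to 47 bases before the start, GGAAAGCCCC (the NF-kB string on the opposite strand) from 35 to 26, and CAGCTG from 202 to 197. These strings were present in 7%, 1.61% and 15.6% of protein-coding promoters. No match overlapped another. A match describes letters in a window and was not tested as a binding site. With so few promoters, the difference in matches between occupied and unoccupied ones was not tested.

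All 3 printed promoters, the unoccupied one of Ccl9 included, held few CpG, the dinucleotide that TET2 acts on when it is methylated. The 250 bases before the start held 2 CpG in Ccl3, 2 in Ccl6 and 2 in Ccl9, with GC contents of 46.8%, 45.2% and 43.6%. The median over 21229 protein-coding promoters was 10 CpG and 55.6% GC, and 22.6% of them held at most 2 CpG, as did 27.1% of the 17150 that no site overlapped. Among the 333 promoters overlapped by sites of both lists the median was 15 CpG, and 44 of them (13.2%) held at most 2. Among the 3709 overlapped by a myeloid site alone the median was 19 CpG, and 93 (2.51%) held at most 2. The Ccl6 and Ccl9 promoters had a stretch in common: gccctccacttcc, their longest identical run at 13 bases, began 55 bases before the Ccl6 start and 14 bases before the Ccl9 start. This run lay in the part of the Ccl6 promoter that the myeloid site covered and the AML site did not.

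All 7 chemokine genes had a myeloid TET2 site and 4 had an AML site. Over all 21883 protein-coding genes, 41.9% had a myeloid site and 19.7% an AML site. A median member had 1 AML site and 3 myeloid sites, against 0 and 0 over all protein-coding genes. Ccl2, Ccl3, Ccl4 and Ccl6 had a site in both lists (17.7% of all genes did), and in each of these 4 at least 1 site was shared, meaning that an AML and a myeloid site overlapped by at least 1 bp (15.5% of all genes). Ccl5, Ccl7 and Ccl9 had myeloid sites alone. Over all genes, 9178 had a myeloid site and 3873 of these had an AML site too, so most had myeloid sites alone. The territories of the 7 genes, meaning their bodies and all bases up to 100 kb away whose nearest gene end was theirs, gave 0.735 AML and 2.07 myeloid assignments expected if sites were spread evenly, where 8 and 20 were found with the site at the start of Ccl3 counted for Ccl4 too. The AML count of 0 at Ccl5, Ccl7 and Ccl9 stands beside 0.093, 0.037 and 0.11 assignments expected there.

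**Figure D1:**
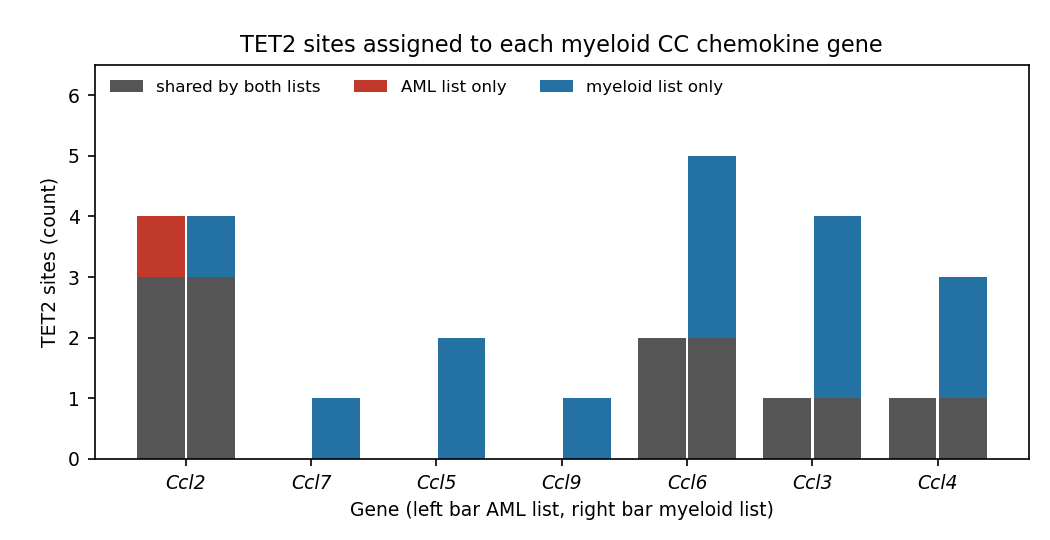
Number of TET2 sites assigned to each chemokine gene, with the AML list as the left bar and the myeloid list as the right bar of each pair and the shared sites in grey. Ccl2 had 4 sites in each list, and Ccl5, Ccl7 and Ccl9 had myeloid sites alone; the site at the start of Ccl3 is counted for Ccl4 too.

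At these genes most AML sites coincided with a myeloid site. Of the 7 AML sites, 6 were shared (85.7%, exact Clopper-Pearson 95% interval 42.1 to 99.6), where 71.4% of all AML sites were. These 6 made up 31.6% of the 19 myeloid sites (12.6 to 56.6), against 26.2% of all myeloid sites. Both intervals contain the value of the whole list. They cover counting error over sites only. The members had 1 AML-only and 13 myeloid-only sites, and 2.71 myeloid sites per AML site, against 2.79 over all assigned sites.

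The shared sites were not always centred alike. Midpoints of the 6 shared pairs differed by 4 to 250 bp with a median of 67.5 bp, against a median of 25 bp (quartiles 11 and 49) over all 4922 shared pairs. The smallest overlap of a pair was 78.5% of the shorter site, at the most distant shared site below Ccl2. AML sites at the members were 714 to 920 bp wide, and 6 of 7 were wider than the list's median of 721 bp. The site at the Ccl6 start, at 920 bp, was among the widest 3.64% of the AML list. Myeloid sites were 631 to 1234 bp wide with a median of 709 bp, equal to that of their list.

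The monocyte chemoattractant gene Ccl2 had 4 AML sites, more than any other member within the limit of 100 kb. With a limit of 20 kb it had 2, as Ccl6 did, and with sites in or within 1 kb of a gene alone it had 0, where Ccl3, Ccl4 and Ccl6 had 1 each. Ccl2 spans chr11:82035577-82037452, and all of its sites lay in the 67.2 kb between the gene Asic2 and Ccl2, below the lower coordinate of Ccl2. As background, Ccl2 is transcribed towards higher coordinates, which puts these sites upstream. The 4 AML sites were chr11:82006739-82007587, chr11:82014884-82015674, chr11:82022414-82023204 and chr11:82023603-82024317. Their midpoints lay 28.4, 20.3, 12.8 and 11.6 kb from the gene. The 4 myeloid sites were chr11:82004671-82005380, chr11:82006593-82007271, chr11:82015021-82015663 and chr11:82023629-82024284, at 30.6, 28.6, 20.2 and 11.6 kb. Thus 3 positions, near 28, 20 and 12 kb, were occupied in both lists, and each list added 1 site beside a shared one. The AML-only site was 399 bp from the next AML site and 425 bp from the nearest myeloid site. The myeloid-only site was 1.21 kb from the next myeloid site.

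Such a count of AML sites was uncommon. Of all protein-coding genes, 221 (1.01%) had at least 4 AML sites and 5.65% at least 4 myeloid sites. Among 1461 intervals between neighbouring protein-coding genes with 0.8 to 1.25 times the length of the interval below Ccl2, 13 (0.89%) held at least 4 AML sites and 5.0% at least 4 myeloid sites, that interval included. Counts at Ccl2 were equal in both lists, but were 2 AML and 1 myeloid with a limit of 20 kb or with all annotated genes competing. No site lay inside Ccl2 or within 1 kb of its ends. With sites merged within 500 bp Ccl2 had 3 AML sites, and without that merging 2.43% of all genes had at least 3. Ccl2 is described here as the member with the most AML sites, which limits these shares to a description.

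Beyond Ccl2, sites in this cluster were not shared. Ccl7, which encodes the monocyte chemoattractant MCP-3 (chr11:82045712-82047525), had the myeloid-only site chr11:82041547-82042297, 3.79 kb from it and between Ccl2 and Ccl7, and 0 AML sites. The eotaxin gene Ccl11 had 1 AML-only site 4.21 kb away, Ccl8 had 1 AML-only site 22.8 kb away, and Ccl12 had none in either list. Ccl1, the gene of a T cell and mast cell chemokine at the far end, had 1 AML-only site at 18.1 kb and 3 myeloid-only sites at 2.37, 24.1 and 35.2 kb. The window of this cluster, from 100 kb below Ccl2 to 100 kb above Ccl1 (chr11:81935577-82279812), held 7 AML and 8 myeloid sites, 3 of each shared. All 3 shared pairs were those below Ccl2. This split was noticed after the values were seen and was not tested.

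**Figure D2:**
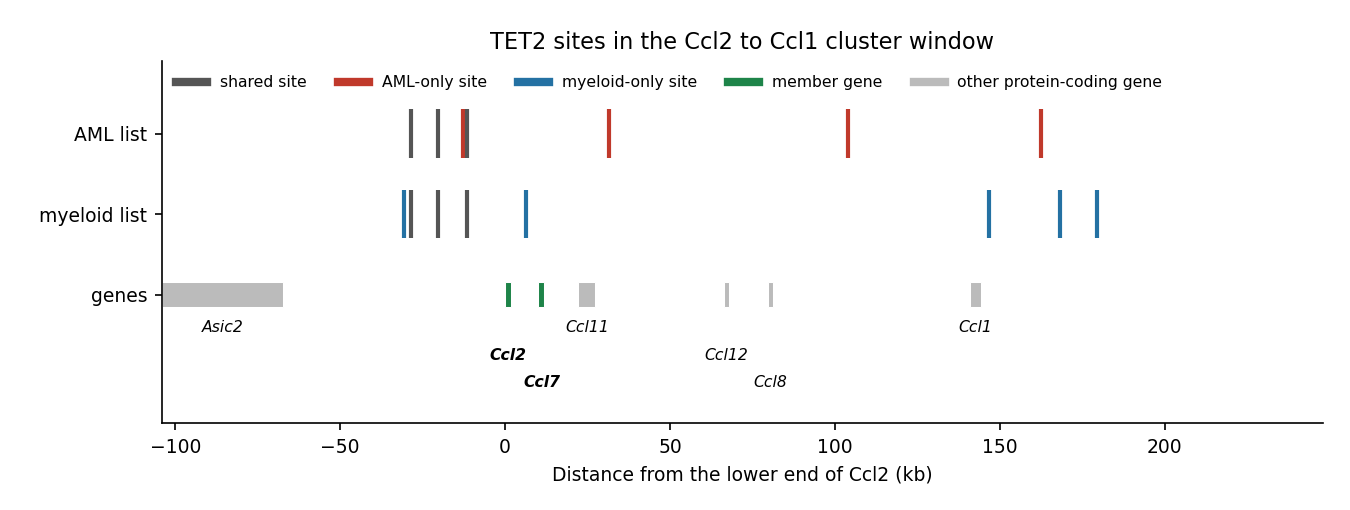
Map of the Ccl2 to Ccl1 window, with TET2 site midpoints of each list as vertical marks and genes as boxes, by distance in kb from the lower end of Ccl2. The shared sites (grey) lie at about -28.4, -20.3 and -11.6 kb, and every site to the right of Ccl2 is found in 1 list alone.

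The second cluster held more myeloid sites. It runs from Ccl5 through Ccl9, Ccl6 and Ccl3 to Ccl4, and its 5 genes had 3 AML sites, all shared, and 14 myeloid sites, 3 of them shared. Ccl2 and Ccl7 had 4 AML and 5 myeloid sites, and with a limit of 20 kb they had 2 AML sites against 3 here. Myeloid sites per AML site were 4.67 here and 1.25 at Ccl2 and Ccl7. This difference between the clusters was not tested.

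Ccl6 had 5 myeloid sites, the most of any member within the limit of 100 kb. The rank changed under other settings: with a limit of 20 kb, and with sites at or above the median width, Ccl6 had 2 and Ccl3 had 4. With all annotated genes competing, and with sites in or within 1 kb of a gene alone, Ccl6 had 1 and Ccl4 had 3, and with sites merged within 500 bp Ccl6 and Ccl2 had 4 each. Ccl6 (chr11:83587886-83593087) had 2 AML sites, the promoter site with its midpoint 0.568 kb from the start and chr11:83605265-83606094 at 12.6 kb. Its 5 myeloid sites were the promoter site, chr11:83605409-83606074 at 12.7 kb, chr11:83616491-83617122 at 23.7 kb, chr11:83618016-83618762 at 25.3 kb and chr11:83618925-83619574 at 26.2 kb. All lay before the Ccl6 start, in the interval towards Ccl3. The first 2 positions were occupied in both lists and the 3 more distant ones in the myeloid list alone. At least 2 AML sites were found at 6.52% of all protein-coding genes, and at least 5 myeloid sites at 3.39%.

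Ccl3, next along the chromosome (chr11:83647843-83649378), had 1 AML and 4 myeloid sites. The shared site covered its start, with midpoints 104 bp (AML) and 176 bp (myeloid) from it. The other 3 myeloid sites were chr11:83628671-83629397, chr11:83640005-83640737 and chr11:83641110-83641840, on the far side of the gene at 18.8, 7.47 and 6.37 kb from its lower end. Ccl3 is read towards lower coordinates, so these 3 sites lie beyond its 3′ end. None had an AML partner.

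The interval between Ccl6 and Ccl3 held more myeloid sites than any other interval of like length. In its 54.8 kb lay 8 myeloid sites and 2 AML sites. Of 1569 intervals between neighbouring protein-coding genes with 0.8 to 1.25 times that length, it was the 1 (0.0637%) with at least 8 myeloid sites, against a mean of 0.59. At least 2 AML sites were found in 87 of these intervals (5.54%). The interval was singled out after its values were seen, which limits this rank to a description. Its myeloid sites stood in 5 places: the Ccl6 promoter, a single site, a group of 3 with gaps of 894 and 163 bp, a single site, and a pair 373 bp apart. Gaps between these places ran from 9.1 to 11.4 kb.

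Ccl4, which encodes MIP-1 beta, had 1 AML and 3 myeloid sites, but 1 of each was the site at the start of Ccl3. The table gives Ccl4 as chr11:83648624-83664683, an interval that overlaps Ccl3 by 755 bp and combines 1 curated and 1 predicted transcript. The midpoint of the shared site lies inside this interval and nearest to the end of Ccl3, so the site counts for both genes. When each site went to the gene with the nearest end alone, Ccl4 had 0 AML sites. The other myeloid sites of Ccl4, chr11:83661975-83662671 and chr11:83663386-83664076, lay inside this combined interval at 2.36 and 0.952 kb from its upper end. They had no AML partner. Their distance from the start of the curated transcript was not measured, so either may lie at that start.

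Ccl5 and Ccl9 had myeloid sites and no AML site. Ccl5, the gene of RANTES (chr11:83525778-83530518), had the sites chr11:83544131-83544770 and chr11:83549914-83550944, at 13.9 and 19.9 kb above it. The second, at 1030 bp, was among the widest 5.0% of the myeloid list. At least 2 myeloid sites were found at 19.5% of protein-coding genes. Ccl9, a further rodent CCR1 ligand (chr11:83572917-83578636), had 1 myeloid site, chr11:83572042-83572832, 480 bp outside its lower end. That end is the 3′ end of Ccl9, on the other side of the gene from the promoter printed above.

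**Figure D3:**
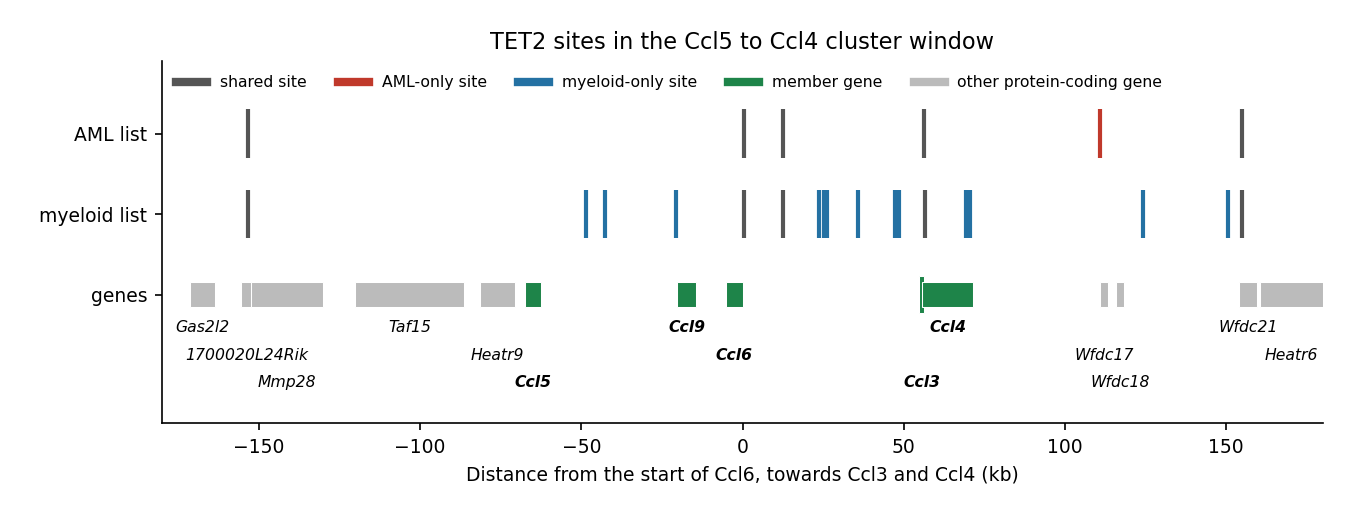
Map of the Ccl5 to Ccl4 window, drawn as the map of the Ccl2 cluster, by distance in kb from the start of Ccl6. The 14 myeloid sites of the 5 chemokine genes spread over the cluster, while its 3 AML sites lie at 0.568, 12.6 and 56.4 kb, each beside a myeloid site.

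Most member sites lay away from gene ends. A midpoint within 1 kb of a member's end was found for 2 of the 7 AML sites (28.6%, 3.67 to 71), and for 4 of the 19 myeloid sites (21.1%, 6.05 to 45.6). Over the whole lists 8.82% and 22.6% of sites lay within 1 kb of a gene end. These sites belonged to Ccl6, Ccl3 and Ccl4 in the AML list, where 2.84% of all genes had a gene-end site, and to those genes and Ccl9 in the myeloid list, where 19.5% did. Both AML gene-end sites were shared. They covered the whole 300-base promoter window of Ccl3 and 142 bases of that of Ccl6. For Ccl4 the ends were those of the interval that combines its curated and predicted transcripts. A site at a transcript start inside that interval was not counted as a gene-end site.

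**Figure D4:**
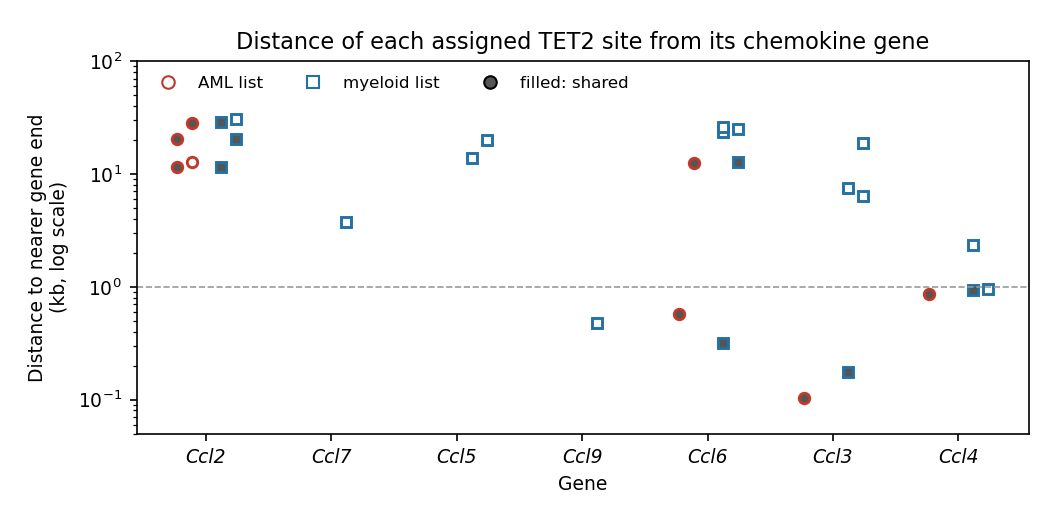
Distance in kb (log scale) from each assigned site to the nearer end of its gene, circles for the AML list and squares for the myeloid list, filled where shared; points are shifted sideways to keep them apart and the dashed line marks 1 kb. AML sites of Ccl2 lie from 11.6 to 28.4 kb, and those of Ccl3, Ccl4 and Ccl6 under 1 kb except 1 at 12.6 kb.

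The windows of both clusters were compared with consecutive windows of the same length over the genome, from 3 Mb of each chromosome. The windows compared were not matched for gene content and include regions with few genes. At the length of the Ccl2 to Ccl1 window, 4699 of 7710 held 0 AML sites and 3509 held 0 myeloid sites. The Ccl2 to Ccl1 window (344.2 kb) held 7 AML sites, where 0.895% of 7710 windows held as many, and 8 myeloid sites, where 9.96% did. The Ccl5 to Ccl4 window (338.9 kb, chr11:83425778-83764683) held 6 AML sites, where 1.91% of 7834 windows held as many, and 18 myeloid sites, where 0.357% did. In the first the AML count was the rarer, in the second the myeloid count. With no sequence added beside the genes the first window held 2 AML sites and 1 myeloid site (8.98% and 37.8% of windows), since its shared sites lie outside the genes. The second then held 3 and 14 (3.42% and 0.0209%). Neighbours of the second cluster supplied its other sites: a shared site at Mmp28 and 1700020L24Rik, a shared and a myeloid-only site at Wfdc21, a myeloid-only site at Wfdc18 and an AML-only site 0.271 kb from Wfdc17.

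**Figure D5:**
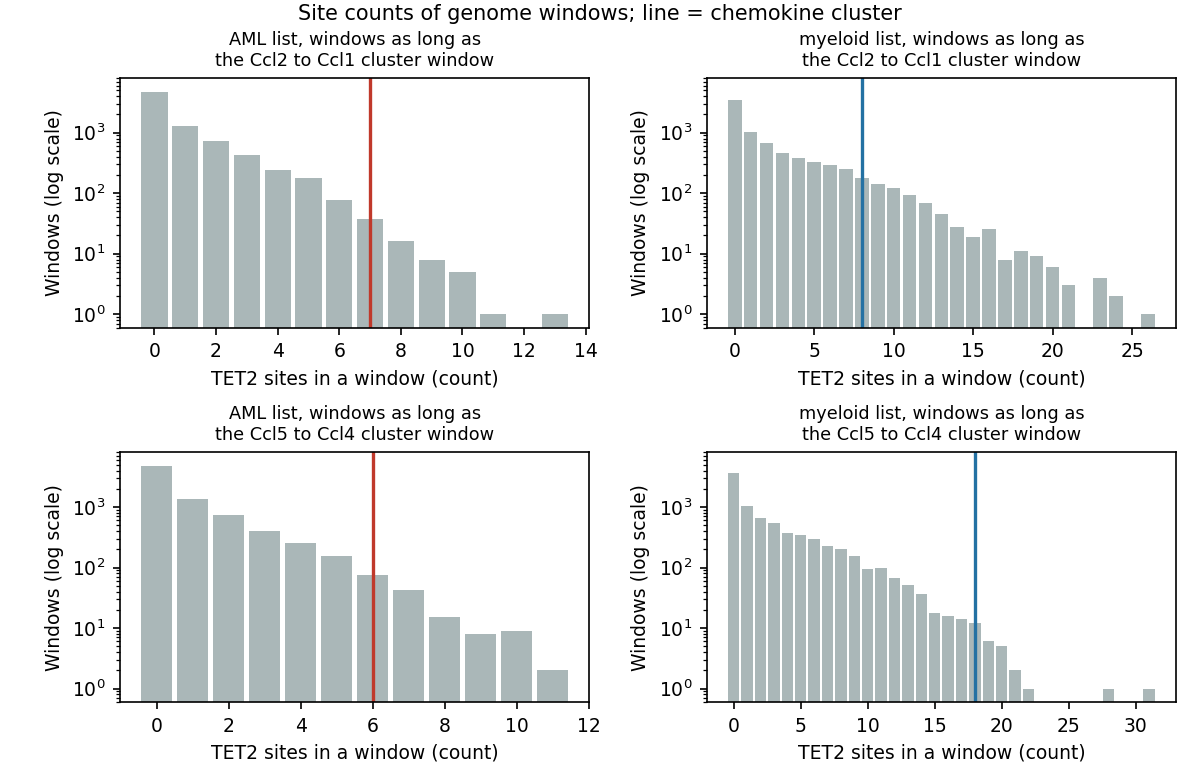
Histograms of the number of TET2 sites per genome window (log count of windows), for each list and each cluster's window length, with the chemokine cluster as a vertical line. The clusters stand at 7 and 6 AML sites and at 8 and 18 myeloid sites, where the mean window held 0.891 and 0.877 AML and 2.44 and 2.4 myeloid sites.

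The balance of unshared sites passed the test at none of the members, and none had enough unshared sites to pass. Each gene's AML-only and myeloid-only sites were compared with those of all other genes by Fisher's exact test (two-sided), over 8668 genes with an unshared site, with Benjamini-Hochberg adjustment. Of these genes, 0.0346% (3 genes) passed at an adjusted p under 0.05 as higher in AML and 0.0% as higher in myeloid, and 130 had an unadjusted p under 0.05, all higher in AML. Ccl2, with 1 AML-only and 1 myeloid-only site, had the lowest p of the members (odds ratio 7.47, Fisher exact p = 0.222, adjusted p = 1). At a gene with myeloid-only sites alone, 29 would be needed for an unadjusted p under 0.05. The test could thus not find the other 6 members, with up to 3 each, lower in AML. Nor could it find any member, Ccl2 included, higher in AML. Even Col4a6, with 3 AML-only sites and 0 myeloid-only sites, had Fisher exact p = 0.00165 and did not pass after adjustment. The absence of a call at the members is therefore not informative. Just 1 member had an AML-only site, as did 7.11% of all genes.

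Several genes outside the list had the same counts of AML-only, shared and myeloid-only sites as a member. The counts of Ccl2 (1, 3 and 1) were found at 8 other genes, of which Tnfrsf14, Vsig4 and Bhlhe40 were closest in territory size. Those of Ccl6 (0, 2 and 3) were found at 61, with Cnr2, Spi1 and Pygl closest, and those of Ccl3 (0, 1 and 3) at 152, with Smg9, Cox4i1 and Nat9 closest. The patterns of Ccl4 and Ccl5 were found at 337 and 1049 genes. Likeness here is the distance between 3 counts over 2 lists, and it was 0 for all genes named.

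Sharing ranged, among the other chemokine genes, from 0 of 3 AML sites at the other CC ligand genes to 9 of 11 at the receptors. Of 13 other CC ligand genes, 3 had AML sites (3 in all) and 4 had myeloid sites (8 in all), and none was shared. Those AML sites are the ones at Ccl1, Ccl8 and Ccl11 described above. Ccl17 and Ccl24 had 2 myeloid sites each and Ccl25 had 1, with no AML site. The receptor genes Ccr1, Ccr2 and Ccr3 lie together on chromosome 9 and had 2, 1 and 2 AML sites and 6, 3 and 4 myeloid sites. Differences between these lists of genes were not tested. Of 15 CC receptor genes in all, 6 were assigned AML sites and 10 myeloid sites, and 9 of their 11 AML sites (81.8%) were shared, a share near that of the members. Of 15 CXC and CX3C ligand genes, 6 were assigned AML sites and 9 myeloid sites, with 2 AML and 2 myeloid sites at Cxcl1, 1 and 3 at Cxcl10, and 0 and 3 at Cxcl12. Of their 7 AML sites 5 were shared (71.4%). The promoter of Ccr1 and that of Cxcl2 were covered in full by a myeloid site and by no AML site. A myeloid site overlapped 19.0% of all protein-coding promoters.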

How the data were processed

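The submitters' processing notes name the read trimmer Trimmomatic, the aligner Bowtie2, the peak caller MACS2 and mm10. No source used here gives their versions, a threshold, or which libraries made each list. The authors deposited 7002 AML and 19706 myeloid sites as other values, namely chromosome, start and end per the file headers, so the depth is unknown. Starts may count from 0 or from 1, so each may be off by 1 bp. Overlapping sites of a list were merged, and 1 AML site off the chromosomes was left out. Genes came from a RefSeq table of GRCm38.p6, which gives no strand, and promoters from a RefSeq promoter table of that build. Territories were measured on a grid of 100 bp. Python 3.11.15, pandas 2.3.3 and scipy 1.17.1 were used, and the assignment and the Fisher test were tested on simulated data. The members and lists were chosen with earlier results of these data known. The text names all members, genes of the cluster windows, the CC and CXC ligand genes with most sites (ties by symbol), receptors chosen for the ligands they bind, not for their counts, and genes alike in counts. Of the named lists, all CC ligand and receptor genes and 15 of 16 CXC and CX3C ligand genes matched. Sites in a cluster are not independent, so Fisher p-values cover counting error only.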

Additional observations from a re-analysis of the deposited data

How the results depend on the processing

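Each count was recomputed with 1 choice changed at a time, and 89 of the summary values stayed close while 27 did not. Close meant within 1.5 times for a count, and inside the interval of 42.1 to 99.6 for the percentage of AML sites shared. That interval is wide. With sharing set as midpoints within 100 bp, 4 of the members' AML sites were shared (57.1%), which counted as close. With all annotated genes competing, lncRNAs included, the members had 4 AML and 7 myeloid sites, 3 shared in each list. With sites inside or within 1 kb of a gene alone, 2 AML and 5 myeloid sites were left, 2 shared in each list (100% of the AML sites), and 4 members had a myeloid site. With sites at or above the median width of their list, the members had 10 myeloid sites and 2 shared sites in each list (33.3% of AML sites), and the windows held 4 AML and 4 myeloid sites around Ccl2 and 8 myeloid sites around Ccl6. Fewer sites enter there by construction. Merging sites within 500 bp joined the AML-only site below Ccl2 to a shared one, so 100% of AML sites were shared. With gene ends at 0.5 kb, 1 AML site lay at an end. With 20 kb beside the clusters the Ccl5 to Ccl4 window held 3 AML sites and the Ccl2 to Ccl1 window 3 myeloid sites. With none, the first held 3 AML sites and the second 2 AML and 1 myeloid site. The Fisher test called 1 gene with a limit of 20 kb, with sites in or within 1 kb of genes, and with all annotated genes. No member passed Fisher's exact test under any setting that tested one (exact test, adjusted p = 1 in each). The requirement of 5 unshared sites left no member to test. In the main setting no member had enough unshared sites to pass, so these repeats say little about the members. Nearest start sites were not run because 3 of the 7 members were matched in the promoter table. Leaving out replicates was not run because the lists hold no value per library. No paired analysis was possible because the columns carry no replicate.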
